A study of Gallus gallus with 13 samples.

Results

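Of 11498 genes tested, 10 genes of fatty acid synthesis, desaturation and activation were followed in primary chicken embryo fibroblasts as the cells left the cell cycle by different routes. They were ACLY, ACACA, FASN, ELOVL5, ELOVL6, SCD, FADS1, FADS2, ACSL1 and ACSL3, and they were chosen by name: a probe set belonged to the set where the array annotation gave 1 of these symbols. This gave 20 of the 37693 chicken probe sets on the array, and 19 of them passed the filter on low signal. The second FADS2 probe set, at 0.85 to 7.42 on every array, lay below the filter, but each of the 10 genes kept at least 1 probe set. A gene is described by its brightest tested probe set, and its other probe sets are given where they bear on the result.

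Total RNA from 13 cultures was hybridised to Affymetrix chicken arrays to compare cells arrested by crowding, by serum removal or by both with cycling cells. The fibroblasts were taken from White Leghorn embryos at day 10, grown at 41.5 °C and used at fewer than 10 passages. All cultures had a medium with insulin and zinc, so insulin was present in every group, and no group carries a transgene or drug. Cycling cells (3 arrays) were collected in log-phase growth with 5% serum. Contact-inhibited cells (4 arrays) had reached full confluence, also with 5% serum, with the medium renewed. For the serum-starved group (3 arrays), growing cultures were moved to medium without serum. The contact-inhibited and serum-starved cells (3 arrays), called confluent starved cells here, were first grown to confluence and then deprived of serum. The labels call the arrays biological replicates without saying whether they came from separate embryos, so each p-value sets a change against the spread between these arrays. Times of arrest were not used here because the labels give none.

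Fatty acids are built in the cytosol from acetyl-CoA. ATP citrate lyase (ACLY) makes acetyl-CoA from citrate, acetyl-CoA carboxylase (ACACA) turns it into malonyl-CoA, and fatty acid synthase (FASN) joins these units into palmitate. The elongases ELOVL6 and ELOVL5 lengthen saturated and polyunsaturated chains respectively, the desaturases SCD, FADS1 and FADS2 add double bonds, and the acyl-CoA synthetases ACSL1 and ACSL3 activate free fatty acids. In birds the liver is the main site of fatty acid synthesis, whereas a fibroblast needs fatty acids chiefly for its membranes. In mammals the transcription factors SREBF1 and SREBF2 raise many of these genes together with the enzymes of cholesterol synthesis.

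Signal here is the brightness of a probe set on a linear scale, given as the mean ± SD over the arrays of a group. Changes are differences of log2(signal + 16) with their standard error, a scale that understates the change of dim genes. Each change was tested with limma over 28270 probe sets and is called where its adjusted p lies below 0.05. Signals of different probe sets depend on the probes, so levels are not compared between genes. Precision is limited by having 3 or 4 arrays a group. A lower signal from a whole culture cannot tell fewer expressing cells from less RNA per cell.

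Some arrays stood apart from their group. Cycling replicate 3 differed by at least 2-fold from the mean of cycling replicates 1 and 2 at 2753 of 28270 probe sets (9.74%), 2666 of them lower, whereas replicates 1 and 2 differed that much at 70. Its ratio of 3' to 5' actin signal was 2.41, against 1.27 to 1.89 on the other arrays. W-linked transcripts, which come only from female cells, were uneven as well: HINTW ranged from 2646 to 3358 in cycling cells, whereas contact-inhibited replicates 2 to 4 had 1188 to 1311. The signal was 84.3 for contact-inhibited replicate 1, which had serum, 428 for serum-starved replicate 1 and at most 3.08 for the remaining starved cultures. All starved cultures thus lay below cycling cells and contact-inhibited replicates 2 to 4. The sex of the cells and serum removal therefore cannot be fully told apart here. The part of the W-linked level in the differences between starved and unstarved cells was not tested beyond the adjusted values given with them. Fitting that level as a covariate made the standard errors of the comparisons of starved with unstarved cells larger by a median factor of 1.38 to 1.51. The 13 fibroblast markers summed to 99379.9 to 126156, and COL1A1 had 14423 to 21208 and VIM 13349 to 15527, but PDGFRA was dim at 24.65 to 76.79. The cartilage marker COL2A1 set the cycling cells apart. The 5 chondrocyte markers summed to 10144 to 11325 there, nearly all of it COL2A1, and to 821 to 1653 in the arrested groups. Against cycling cells the median change of the 5 was 0.19 in contact-inhibited, 0.03 in serum-starved and -0.06 in confluent starved cells. COL2A1 had 10319 ± 687 in cycling, 888 ± 72.1 in contact-inhibited, 694 ± 102 in serum-starved and 734 ± 42.0 in confluent starved cells. The proteoglycan ACAN had 288 to 429 in contact-inhibited cells and at most 22.2 elsewhere. Of 8 hepatocyte markers 4 were tested, and ALB, FGB and APOH lay below the filter. Against cycling cells 2 of the 4 rose in serum-starved and 3 in confluent starved cells, where 11% and 18.6% of all genes did. APOA1, 1 of the 4, had 341 to 493 in cycling and 75.9 to 121 in contact-inhibited cells, and 1196 to 1736 in both starved groups. The part of these markers in the changes below was not tested. For some of the calls and changes that cycling replicate 3 or contact-inhibited replicate 1 moved, values without these arrays are given.

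In contact-inhibited cells ELOVL5 fell 1.93-fold against cycling cells, ACLY and ACSL3 fell too, ACACA rose, and the other 6 genes did not pass the test. Without cycling replicate 3 the ACSL3 and ACACA calls were lost. Serum starvation alone changed none of the 10 genes past the threshold. Confluent starved cells had lower ACLY, SCD and ACSL3, and the ACSL3 call was again lost without cycling replicate 3. In these cells the ELOVL5 signal was 1.63-fold higher than in contact-inhibited cells. In contact-inhibited against cycling cells 1 of the 10 genes was higher and 3 were lower, where 18.7% and 21.9% of all genes tested were. In serum-starved against cycling cells none of the 10 passed the limma test in either direction (background 11% and 9.71%). Of the 10, 2 (ACLY and SCD) had an unadjusted limma p below 0.05, where 20.7% of all genes passed even after adjustment. In confluent starved against cycling cells none was higher and 3 were lower (background 18.6% and 16.1%). These shares lie near the background, so the counts themselves set the 10 genes apart in no comparison with cycling cells. Their median change was -0.07, 0.14 and -0.18 in the 3 comparisons, against 0.02, 0.01 and 0.02 over all genes.

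Across the 4 groups together, an F test passed for 4 of the 10 genes (ELOVL5, ACLY, SCD and FADS2), where 47.2% of all genes passed. ELOVL5 had the largest F of the 10, at the 97.9th percentile of all genes, and ACLY lay at the 93.2nd percentile. SCD lay at the 61.9th percentile, and the other 7 genes lay lower.

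**Figure D1:**
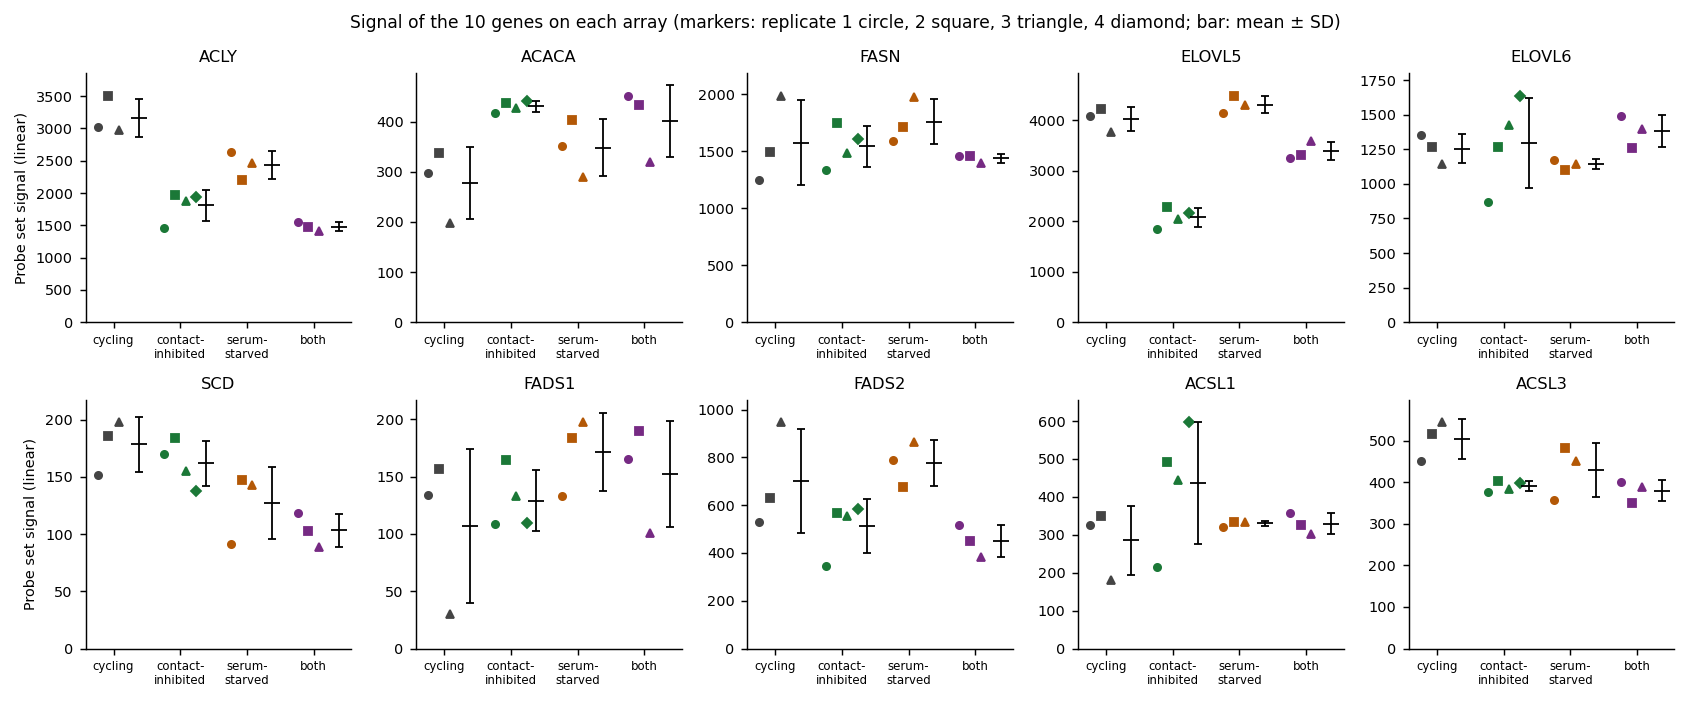
Linear probe set signal (vertical axes, each starting at 0) of the 10 genes on each of the 13 arrays, by culture group, with the mean ± SD beside the points; "both" is the confluent starved group. The 4 contact-inhibited arrays of ELOVL5 lie at 1842 to 2274, below all others of that gene, and the 3 cycling arrays of ACLY lie at 2977 to 3504, above all others of that gene.

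ACLY, which supplies the acetyl-CoA, was highest in cycling cells and lowest in confluent starved cells. Its signal was 3019, 3504 and 2977 in cycling cells (3167 ± 293, n = 3) and 1458, 1973, 1872 and 1939 in contact-inhibited cells (1811 ± 239, n = 4). Serum-starved cells had 2632, 2209 and 2471 (2438 ± 214, n = 3), and confluent starved cells 1549, 1472 and 1414 (1478 ± 67.9, n = 3). All 3 cycling arrays lay above every other array, the serum-starved arrays came next, and the contact-inhibited and confluent starved arrays overlapped. Against cycling cells, 43.6% of all genes showed no overlap in contact-inhibited and 52.3% in confluent starved cells. The fall was 1.75-fold in contact-inhibited cells (-0.81 ± 0.12, limma adjusted p = 0.000165) and 2.13-fold in confluent starved cells (-1.09 ± 0.13, limma adjusted p = 3.68e-05). Serum-starved cells had a change of -0.38 ± 0.13, which missed the threshold (limma adjusted p = 0.057) although the groups did not overlap, as held for 40.1% of all genes in that comparison. Without contact-inhibited replicate 1, whose spread enters every test, the same change passed (limma adjusted p = 0.0133). With the W-linked level as a covariate it was -0.05 ± 0.13, and the change in confluent starved cells was -0.72 ± 0.14 (limma adjusted p = 0.00427). Confluent starved cells also lay below serum-starved cells (-0.71 ± 0.13, limma adjusted p = 0.0182), and serum-starved lay above contact-inhibited cells (0.43 ± 0.12, limma adjusted p = 0.0195). The latter call was lost without serum-starved replicate 1 or 3 and with the mean of all probe sets (limma adjusted p = 0.0808, 0.0644 and 0.476).

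The second ACLY probe set was about an order of magnitude dimmer and did not bear out these calls with all arrays. It had 208 and 209 in cycling replicates 1 and 2 but 11.4 in cycling replicate 3, and 80.0 to 152 in contact-inhibited cells. Its change in contact-inhibited cells was 0.27 ± 0.62 with all arrays and -0.75 without cycling replicate 3, and neither passed (limma adjusted p = 0.78 and 0.163). In confluent starved cells it had 113, 94.0 and 18.9, a change of -1.50 without cycling replicate 3 (limma adjusted p = 0.0141). When all probe sets of the gene were averaged, ACLY passed in neither comparison with cycling cells (limma adjusted p = 0.577 and 0.115).

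ACACA, which commits acetyl-CoA to fatty acids, had 298, 337 and 198 in cycling cells (278 ± 71.6, n = 3). Contact-inhibited cells had 417, 438, 428 and 441 (431 ± 11.02, n = 4), all above the cycling arrays. A lack of overlap held for 43.6% of all genes in that comparison. ACACA was 352, 404 and 289 in serum-starved cells and 451, 432 and 320 in confluent starved cells, both overlapping the cycling values. The rise in contact-inhibited cells was 1.55-fold (0.64 ± 0.18, limma adjusted p = 0.0148). It rested on cycling replicate 3, the lowest array: without it the change was 0.42 ± 0.16 (limma adjusted p = 0.0614). The second probe set had a change of -0.17 and the third, near the filter at a mean of 20.4 to 31.1, one of 0.45, and neither passed (limma adjusted p = 0.611 and 0.112). In confluent starved cells the change of the brightest probe set was 0.52 and missed the threshold (limma adjusted p = 0.0573). It passed under 5 of the 25 alternatives.

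FASN, the synthase itself, gave no call in any comparison with all arrays. It had 1249, 1495 and 1986 in cycling cells, 1332, 1749, 1484 and 1609 in contact-inhibited cells, 1586, 1717 and 1979.5 in serum-starved cells and 1458, 1461 and 1393 in confluent starved cells. The cycling arrays spanned the whole range of the other groups. The change against cycling cells was -0.01 in contact-inhibited cells (95% interval -0.33 to 0.31), 0.18 in serum-starved cells (-0.16 to 0.52) and -0.11 in confluent starved cells (-0.45 to 0.23). Without cycling replicate 3 and contact-inhibited replicate 1 together, the change in serum-starved cells was 0.36 and passed (limma adjusted p = 0.0461). Its second probe set, at 1028 to 1585 over all arrays, also gave no call.

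**Figure D2:**
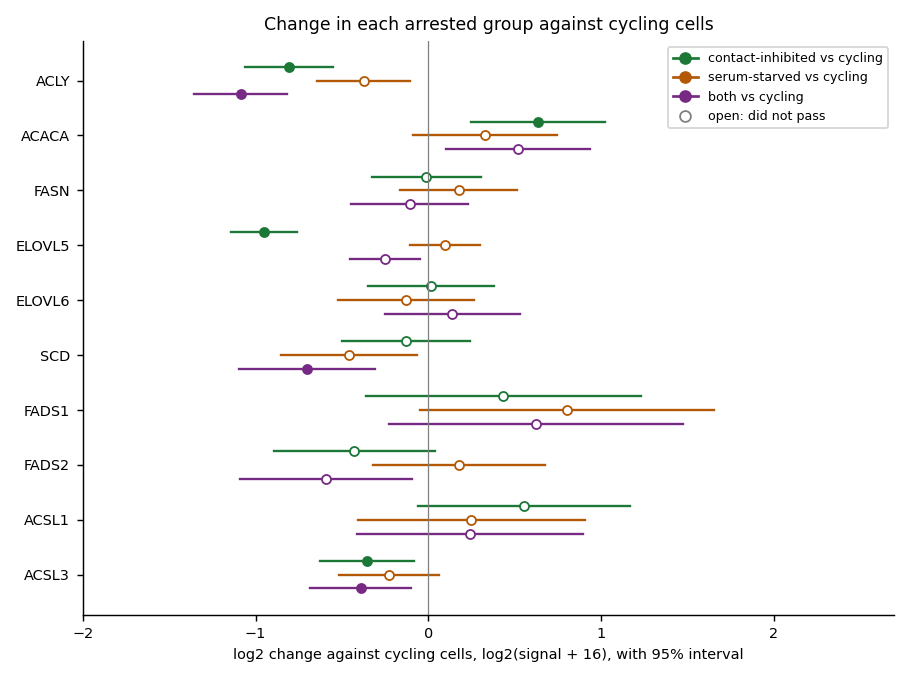
Change of each gene against cycling cells on the log2(signal + 16) scale (horizontal axis), with 95% intervals, for contact-inhibited, serum-starved and confluent starved ("both") cells; filled points passed the limma test and open points did not. Filled points lie at -0.81 and -1.09 for ACLY, 0.64 for ACACA, -0.95 for ELOVL5, -0.70 for SCD, and -0.35 and -0.39 for ACSL3.

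ELOVL5, the elongase of polyunsaturated chains, separated the groups most clearly. Its signal was 4088, 4218 and 3766 in cycling cells (4024 ± 233, n = 3) and 1842, 2274, 2035 and 2162 in contact-inhibited cells (2078 ± 185, n = 4). Serum-starved cells had 4151, 4481 and 4293 (4309 ± 165.5, n = 3), and confluent starved cells 3246, 3318 and 3589 (3384 ± 181, n = 3). The 4 contact-inhibited arrays lay far below all others, the confluent starved arrays lay between them and the cycling arrays, and the cycling and serum-starved arrays overlapped. The fall in contact-inhibited cells was 1.93-fold (-0.95 ± 0.09, limma adjusted p = 4.23e-06). It passed without cycling replicate 3 (limma adjusted p = 6.26e-06), and without contact-inhibited replicate 1 it was -0.89 ± 0.08 and also passed. With the mean of all probe sets it did not pass (-0.49, limma adjusted p = 0.189). Serum-starved cells exceeded contact-inhibited cells 2.07-fold (1.05 ± 0.09, limma adjusted p = 3.64e-06), a call kept under each of the 25 alternatives tried. In serum-starved against cycling cells the change was 0.10, with a 95% interval of -0.10 to 0.30. Confluent starved cells did not overlap cycling cells, as held for 52.3% of all genes, and their change was -0.25 ± 0.09 (limma adjusted p = 0.062). Without cycling replicate 3 this change was -0.30 and passed (limma adjusted p = 0.0494).

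The second ELOVL5 probe set gave the same order of groups only without cycling replicate 3. It had 816 and 1002 in cycling replicates 1 and 2 but 121 in cycling replicate 3. Contact-inhibited cells had 398, 668, 416 and 416, serum-starved cells 820, 885 and 1113, and confluent starved cells 831, 910 and 598. With all arrays its change in contact-inhibited cells was -0.02 ± 0.51 (limma adjusted p = 0.977). Without cycling replicate 3 it was -0.94 ± 0.22 (limma adjusted p = 0.00477), close to the -0.95 of the brighter probe set.

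**Figure D3:**
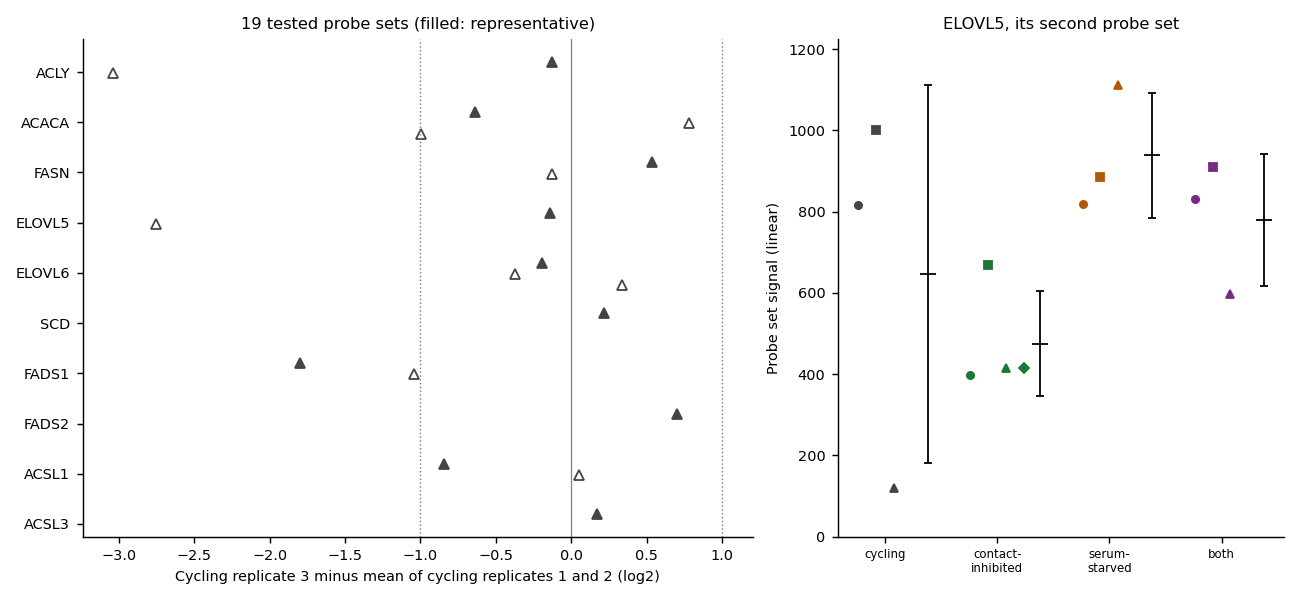
The left panel gives cycling replicate 3 minus the mean of cycling replicates 1 and 2 on the log2 scale (horizontal axis) for the 19 tested probe sets, with filled triangles for the probe set that stands for the gene and dotted lines at a 2-fold difference. The right panel gives the linear signal of the second ELOVL5 probe set by group (replicate 1 circle, 2 square, 3 triangle, 4 diamond) with mean ± SD: cycling replicate 3, at 121, lies far below replicates 1 and 2.

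At 4 of the 19 tested probe sets (21.1%) cycling replicate 3 lay at least 2-fold below the mean of the other cycling replicates. These were the second ACLY probe set (-3.04), the second ELOVL5 probe set (-2.75) and both FADS1 probe sets (-1.80 and -1.04). On the probe sets that stand for ACLY and ELOVL5 the difference was -0.13 and -0.14.

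ELOVL6, the elongase of palmitate, gave no call. Its signal was 1351, 1270.3 and 1142 in cycling cells and 866, 1268, 1423 and 1637 in contact-inhibited cells, a group that spanned the range of all others. Serum-starved cells had 1176, 1104 and 1147, and confluent starved cells 1490.1, 1259 and 1399.7. Against cycling cells the changes were 0.02, -0.13 and 0.14, with 95% intervals that reached -0.52 and 0.53 at the widest. With the W-linked covariate the change in confluent starved cells was 0.70 and passed (limma adjusted p = 0.0329). Another, dimmer ELOVL6 probe set had a change of 0.50 ± 0.20 in confluent starved cells that did not pass (limma adjusted p = 0.0799).

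SCD, the desaturase that makes oleate and palmitoleate, was lower in confluent starved cells. Its signal was 152, 185 and 198 in cycling cells (178 ± 23.7, n = 3), and 169.7, 184, 155 and 138 in contact-inhibited cells (162 ± 19.8, n = 4). It was 90.9, 147 and 143 in serum-starved cells (127 ± 31.3, n = 3), and 118, 102 and 89.1 in confluent starved cells (103 ± 14.6, n = 3). The confluent starved arrays lay below every cycling and contact-inhibited array but overlapped the serum-starved arrays. A lack of overlap with cycling and with contact-inhibited cells held for 52.3% and 35.3% of all genes. SCD had no other probe set on the array, so the alternative that averages probe sets could not change its values. The fall against cycling cells was 1.63-fold (-0.70 ± 0.18, limma adjusted p = 0.0112), a call kept under each of the 25 alternatives, with values of -1.04 to -0.53. Against contact-inhibited cells it was -0.58 ± 0.17 (limma adjusted p = 0.034). That call was lost without contact-inhibited replicate 1 (-0.55, limma adjusted p = 0.0586) and when any of 4 other single arrays was left out. In serum-starved cells the change was -0.46 ± 0.18 (limma adjusted p = 0.106), with no overlap between the groups, as held for 40.1% of all genes. In contact-inhibited cells it was -0.13, with a 95% interval of -0.50 to 0.24.

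FADS2, which starts the desaturation of essential fatty acids, passed the F test (limma adjusted p = 0.041) but no comparison of 2 groups. It had 530.1, 628 and 948 in cycling cells, 345, 568, 553 and 586 in contact-inhibited cells, 789.7, 674 and 864 in serum-starved cells, and 519, 449 and 382 in confluent starved cells. Every confluent starved array lay below every cycling and serum-starved array, where 52.3% and 29.7% of all genes showed no overlap. The change in confluent starved against cycling cells was -0.59 ± 0.23 (limma adjusted p = 0.0701), and without contact-inhibited replicate 1 it passed (limma adjusted p = 0.0293). It was -0.36 ± 0.21 and did not pass without cycling replicate 3, the highest cycling array (limma adjusted p = 0.246). Over the 25 alternatives this change ranged from -0.77 to -0.08, with a limma adjusted p of up to 0.887. Confluent starved against serum-starved cells gave -0.77 ± 0.23 (limma adjusted p = 0.15), and serum-starved against contact-inhibited cells 0.60 ± 0.22 (limma adjusted p = 0.0683). The latter passed without cycling replicate 3 (limma adjusted p = 0.024).

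FADS1, the desaturase that completes arachidonate, gave no call in any comparison. It had 134, 156 and 30.2 in cycling cells, 108, 165, 134 and 109.8 in contact-inhibited cells, 133, 184 and 198 in serum-starved cells, and 166, 190.1 and 101 in confluent starved cells. Cycling replicate 3 was again the lowest array. The changes against cycling cells were 0.43, 0.80 and 0.63, each with a 95% interval that included 0 and spanned at least 1.5 on the log2 scale. When that array was left out they were -0.16, 0.21 and 0.03, none of which passed. The second FADS1 probe set, at 43.5 to 125 in cycling cells, gave no call either.

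ACSL3, the synthetase found on the endoplasmic reticulum and lipid droplets, was slightly lower in both confluent groups. It had 451, 517 and 544 in cycling cells (504 ± 48.1, n = 3), and 376, 404, 384 and 397 in contact-inhibited cells (390.1 ± 12.5, n = 4). It had 358, 482 and 449.96 in serum-starved cells, and 399, 351 and 388 in confluent starved cells (379 ± 25.5, n = 3). Both confluent groups lay below all cycling arrays, where 43.6% (contact-inhibited) and 52.3% (confluent starved) of all genes showed no overlap with cycling cells. The changes were -0.35 ± 0.13 in contact-inhibited cells (limma adjusted p = 0.0445) and -0.39 ± 0.13 in confluent starved cells (limma adjusted p = 0.0427). Both calls lay near the threshold and were lost under 15 and 13 of the 25 alternatives, including without cycling replicate 3 (-0.30 and -0.34, limma adjusted p = 0.124 and 0.111).

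ACSL1, the synthetase best known from liver, heart and fat, spread widely in contact-inhibited cells. It had 326, 349 and 181 in cycling cells, 215, 493, 444 and 597 in contact-inhibited cells, 322, 335 and 333 in serum-starved cells, and 358, 326.5 and 302 in confluent starved cells. Contact-inhibited replicates 2 to 4 lay above every other array, and replicate 1 lay below all but cycling replicate 3. The change in contact-inhibited cells was 0.55 ± 0.28 (limma adjusted p = 0.154). Without contact-inhibited replicate 1 it was 0.85 ± 0.20 and passed (limma adjusted p = 0.00636), whereas without cycling replicate 3 it was 0.27 ± 0.28 and did not (limma adjusted p = 0.501). The second, dim ACSL1 probe set went the other way: it had 43.8, 43.0 and 45.6 in cycling cells and 20.2 to 33.7 in contact-inhibited cells, and passed as lower (-0.45 ± 0.16, limma adjusted p = 0.0467). The direction of ACSL1 in contact-inhibited cells is therefore uncertain.

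Serum removal was then compared between growing and confluent cultures. In confluent cultures ELOVL5 rose when serum was removed, by 1.63-fold (0.70 ± 0.09, limma adjusted p = 0.000123), and SCD fell by the amount given above. With the mean of its probe sets the ELOVL5 change was 0.71 and did not pass (limma adjusted p = 0.0916). One of the 10 genes was thus higher and 1 lower in confluent starved against contact-inhibited cells, where 13.5% and 7.34% of all genes were. In growing cultures the change of ELOVL5 was 0.10, and the difference between the effects of serum removal was 0.60 ± 0.13 (95% interval 0.33 to 0.88, limma adjusted p = 0.01). ELOVL5 was the only one of the 10 genes whose difference passed (background 8.87% higher and 5.33% lower). It passed without cycling replicate 3 (0.65), without contact-inhibited replicate 1 (0.55) and with the W-linked covariate (0.60). With the mean of its probe sets it was 0.18 and did not pass (limma adjusted p = 0.825), and on its second probe set without cycling replicate 3 it was 0.67 ± 0.30 (limma adjusted p = 0.177).

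The other 9 genes gave differences between -0.61 (FADS1) and 0.25 (ELOVL6), none of which passed with all arrays. The FADS1 value was -0.01 without cycling replicate 3. For ACLY the difference was 0.09, with a 95% interval of -0.27 to 0.46, and for SCD it was -0.12, with an interval of -0.66 to 0.43. In confluent starved against serum-starved cells 1 of the 10 genes, ACLY, was lower and none higher (background 0.644% and 0.818%). FADS2 (-0.77, given above), ELOVL5 (-0.35 ± 0.09, limma adjusted p = 0.107) and FASN (-0.28) were also lower without overlap between these groups but missed the threshold. ELOVL6 was higher without overlap (0.27) and missed it too. A lack of overlap held for 29.7% of all genes in this comparison. The ACLY call was lost when any of 5 single arrays was left out. In serum-starved against contact-inhibited cells, ELOVL5 and ACLY were higher and none was lower (background 15.1% and 8.6%).

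**Figure D4:**
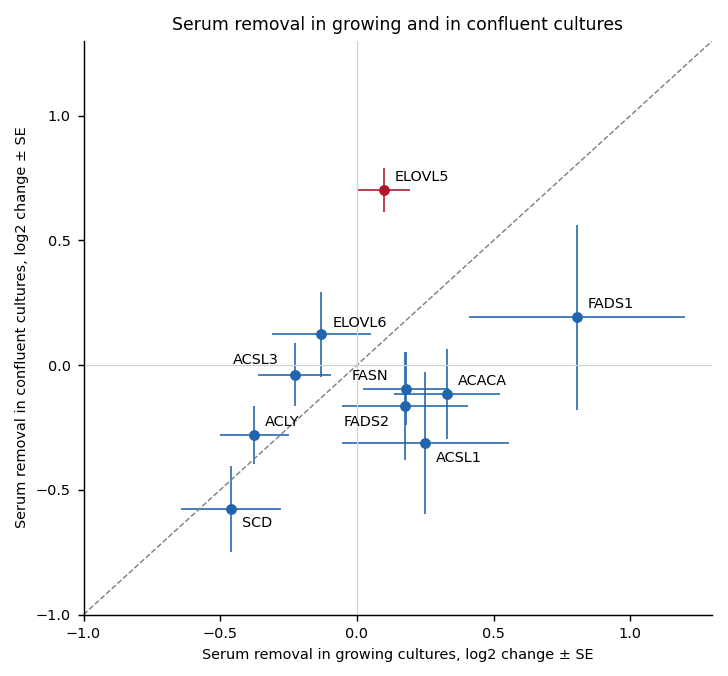
Change on serum removal in growing cultures (horizontal axis, serum-starved minus cycling) and in confluent cultures (vertical axis, confluent starved minus contact-inhibited) for the 10 genes, in log2(signal + 16) with standard errors; the dashed line marks equal changes. ELOVL5, in red, lies at 0.10 and 0.70, and its vertical distance from the line is the difference that passed the limma test.

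The genes around the pathway moved in several directions. Of 29 measured genes of precursor supply and other lipogenic steps, 5 rose and 9 fell in contact-inhibited cells (median 0.06), where 18.7% of all genes rose and 21.9% fell. MID1IP1, whose product activates acetyl-CoA carboxylase, rose from 321 ± 49.7 to 1007 ± 116 (1.60 ± 0.15, limma adjusted p = 5.52e-06). ME1, the malic enzyme that supplies NADPH, rose from 1655 ± 152 to 3766 ± 339.5 (1.18 ± 0.13). The long-chain elongase ELOVL1 fell (-1.01), as did the arachidonate-preferring synthetase ACSL4 (-1.04). In serum-starved cells 3 rose and 3 fell (median 0.02, background 11% and 9.71%), and in confluent starved cells 4 rose and 4 fell (median 0.03, background 18.6% and 16.1%). ME1 rose again in both (0.79 and 1.20), and the dehydratase HACD4, dim in cycling cells at 38.7 ± 13.9, rose by 1.52 and 2.77. Without cycling replicate 3 and contact-inhibited replicate 1 together, the confluent starved counts were 6 and 7, and with the W-linked covariate 2 and 2.

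Of the 29 genes, 2 had a higher and 3 a lower response to serum removal in confluent than in growing cultures (background 8.87% and 5.33%). ACSL4 fell from 703 ± 36.8 in cycling to 337 ± 51.9 in contact-inhibited cells and had 659 ± 66.8 in confluent starved cells, and its difference between the effects was 0.75 (limma adjusted p = 0.0476). Without cycling replicate 3 that difference was 0.74 and did not pass (limma adjusted p = 0.0584). DEGS1, a sphingolipid desaturase, had a difference of 0.94, whereas MID1IP1 (-1.34), ACSS2 (-1.18) and ME1 (-0.77) went the other way.

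Among 16 measured regulators, 4 rose and 2 fell in contact-inhibited cells, 1 rose and none fell in serum-starved cells, and 3 rose and 1 fell in confluent starved cells (medians 0.08, 0.16 and 0.04). The background shares for these comparisons were 18.7% and 21.9%, 11% and 9.71%, and 18.6% and 16.1%. INSIG1, which holds SREBP in the endoplasmic reticulum, rose from 2293 ± 537 to 5185 ± 148 in contact-inhibited cells (1.20 ± 0.14, limma adjusted p = 3.5e-05). In confluent starved cells it had 2917 ± 351, and the effect of serum removal on it differed between confluent and growing cultures (difference -1.05 ± 0.21, limma adjusted p = 0.00653). INSIG2 rose in serum-starved and confluent starved cells (0.83 and 0.95, or 1.47 and 1.65 with the W-linked covariate). SREBF1 had 237 ± 17.0 in cycling, 289.8 ± 22.1 in contact-inhibited, 204 ± 24.7 in serum-starved and 249 ± 33.4 in confluent starved cells and passed in no comparison with cycling cells. SREBF2 fell in confluent starved cells from 2579 ± 818 to 1596 ± 222 (-0.65 ± 0.20, limma adjusted p = 0.0257), a call lost without cycling replicate 3 (-0.41, limma adjusted p = 0.0885). SCAP, the escort of SREBP, fell on serum removal in confluent cells (-0.48, limma adjusted p = 0.0374), which was lost without contact-inhibited replicate 1 (limma adjusted p = 0.0672). NR1H3, the liver X receptor, gave no call.

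PPARG, the master regulator of fat cells, rose in contact-inhibited cells from 245 ± 100.2 to 456.5 ± 109 (0.91 ± 0.26, limma adjusted p = 0.0142). The change was 0.54 ± 0.19 without cycling replicate 3 (limma adjusted p = 0.0463). Of 8 adipocyte markers 3 rose in contact-inhibited cells, FABP4, PPARG and CIDEC, and none fell, where 18.7% and 21.9% of all genes did. The median change of the 8 was -0.0025. FABP4 had 201 ± 79.6 in cycling and 9009 ± 4559 in contact-inhibited cells, with 2479.7 to 12876 on the single arrays. The summed signal of the 8 markers was 673 to 1016 in cycling, 3210.4 to 14019 in contact-inhibited, 688 to 1193 in serum-starved and 996 to 1045 in confluent starved cells. FABP4 made up most of the sum in contact-inhibited cells. None of the 8 was at 0, and the defining marker ADIPOQ had 39.4 ± 7.0 in cycling and 35.1 ± 4.6 in contact-inhibited cells. The summed macrophage and leukocyte markers moved less, from 612 to 732 in cycling to 792 to 898 in contact-inhibited cells. The part of these lists in the changes of the 10 genes was not tested either.

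Of 17 measured genes of cholesterol synthesis, a pathway that shares its acetyl-CoA and its SREBP regulation with fatty acid synthesis, none rose in a comparison with cycling cells. In contact-inhibited cells 8 fell (median -0.41), in serum-starved cells 10 (median -0.48), and in confluent starved cells 15 (median -0.81), where 21.9%, 9.71% and 16.1% of all genes fell. FDPS, which makes farnesyl diphosphate, fell from 2694 ± 355 to 1055 ± 203, 1083 ± 98.0 and 816 ± 111 (-1.35, -1.30 and -1.70). NSDHL fell from 1954 ± 255 to 562 ± 184, 782 ± 119 and 467 ± 80.5, and with the W-linked covariate its fall in serum-starved cells did not pass (-0.50, limma adjusted p = 0.191). Without cycling replicate 3 the counts were 8, 6 and 16, and with the W-linked covariate 9, 4 and 10. The 3 comparisons share their cycling arrays. The 10 genes of fatty acid synthesis had medians of -0.07, 0.14 and -0.18 in the same comparisons, and the difference from the cholesterol genes was not tested.

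Glycerolipid and lipid droplet genes, 19 measured, had 6 that rose and 4 that fell in contact-inhibited cells (median 0.25), 1 and 1 in serum-starved cells (0.17), and 1 and 2 in confluent starved cells (0.07). The background was 18.7% and 21.9%, 11% and 9.71%, and 18.6% and 16.1%. With the W-linked covariate the serum-starved counts were 4 and 0 and the confluent starved counts 3 and 0. The acyltransferase AGPAT2 (1.37), the phosphatidate phosphatase LPIN1 (1.43) and the droplet coat protein PLIN2 (1.00) rose in contact-inhibited cells, and the acyltransferase GPAT4 fell (-0.54). The PLIN2 change was 0.62 without cycling replicate 3 and passed (limma adjusted p = 0.0243). The LPIN1 change includes cycling replicate 3, at a signal of 7, against 33.35 and 52.68 on cycling replicates 1 and 2. Of 19 fatty acid oxidation genes, 6 rose and 2 fell in contact-inhibited cells (median 0.15), 2 and 1 in serum-starved cells (0.18), and 5 and 2 in confluent starved cells (0.20), with the same background. The peroxisomal enzymes HSD17B4 and EHHADH rose by 1.01 and 0.94 in contact-inhibited, by 0.60 and 0.89 in serum-starved and by 0.70 and 0.93 in confluent starved cells. PDK4, the kinase that inhibits pyruvate dehydrogenase, rose by 1.87 in contact-inhibited cells. Its signal there was 277 on replicate 1 and 871, 790 and 1011 on replicates 2 to 4. Without contact-inhibited replicate 1, 9 oxidation genes rose and 1 fell in contact-inhibited cells, and without cycling replicate 3, 4 rose and 2 fell. With the W-linked covariate 8 rose and none fell in serum-starved cells (median 0.55), and 8 rose and none fell in confluent starved cells (median 0.62).

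**Figure D5:**
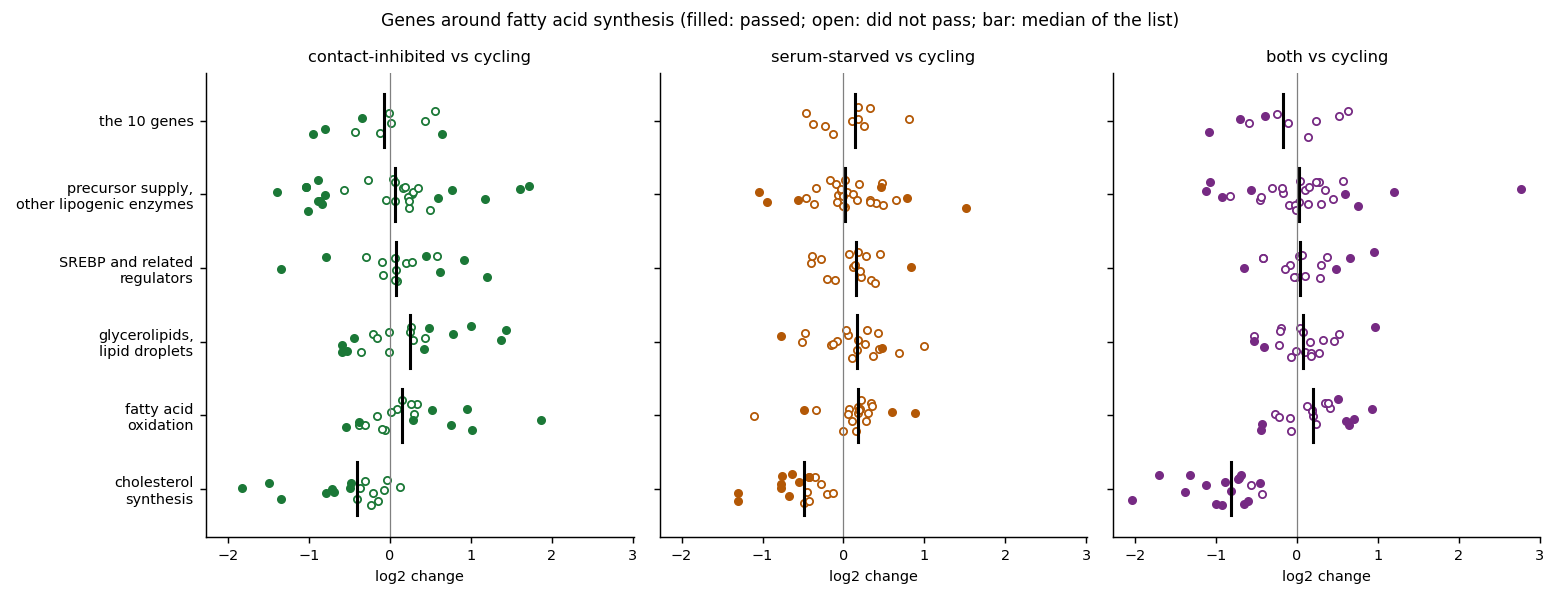
Change against cycling cells in log2(signal + 16) (horizontal axes) for the 10 genes and 5 groups of related genes (rows), with filled points for genes that passed the limma test, open points for those that did not, and a bar at the median. The cholesterol synthesis medians lie at -0.41, -0.48 and -0.81, and those of the 10 genes at -0.07, 0.14 and -0.18.

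For the 3 genes with the largest F, the genes with the most similar profile over the 13 arrays were sought among 11013 named genes, by the root mean square difference of their centred log2 values. Nearest to ELOVL5 were AVEN (0.111), KPNA1 (0.129) and NSMCE1 (0.131), where the median gene differed by 0.515. All 3 fell in contact-inhibited cells (-0.91, -0.86 and -0.72) and passed in neither starved group against cycling cells. Nearest to ACLY were THOP1 (0.127), DUT (0.150) and PPA1 (0.155), with a median of 0.501 over all genes, and all 3 fell in contact-inhibited and in confluent starved cells. DUT, unlike ACLY, also passed as lower in serum-starved cells (-0.49, limma adjusted p = 0.0252). Nearest to SCD were GATAD2A (0.145), FLOT2 (0.154) and ALDOC (0.157), with a median of 0.446, and these 3, like SCD, passed against cycling cells only in confluent starved cells (-0.69, -0.52 and -0.50). All these genes were chosen for likeness on the same arrays, so their shared calls are no separate evidence.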

How the data were processed

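Each deposited value is the linear intensity of a probe set, computed by the authors with Affymetrix Expression Console 1.1 and PLIER, per the submitters' processing notes. How arrays were scaled to each other is not given in the sources used here, and no further scaling was applied. Each array received 15 µg of RNA, and samples with an integrity value under 9.7 had been dropped, per the labels. Gene symbols came from the array annotation.

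From the deposited intensity, log2(signal + 16) was computed, and probe sets with a mean in the lowest 25% (below a signal of 22.7) were dropped. For the 28270 others limma 3.58.1 in R 4.3.3 fitted a mean for each of the 4 groups (lmFit, eBayes with trend, 13 arrays, 9 residual degrees of freedom). P-values were two-sided and adjusted by the Benjamini-Hochberg method within a comparison, with a threshold of 0.05. The procedure was tested on simulated data with few probe sets changed. Against cycling cells it called 16.4% to 29.9% of 1.5-fold and 64.2% to 68.7% of 2-fold changes. There were 5 to 11 false calls among 28270 probe sets. The simulated arrays had independent normal noise and no outlying array such as cycling replicate 3, so these shares may not carry over to the real arrays. A gene stood by its brightest tested probe set. The members and gene lists were chosen with earlier results of these data known. All members were described, with up to 4 genes per list of smallest adjusted p, some regulators (MLXIPL was not named on the array), and the 3 nearest profiles of the 3 genes with the largest F. ACSL4 in the comparison of serum removal was chosen after its values were seen. The closing section names most of the 25 alternatives but not all of them. Of 9 marker lists measured, 5 are given in the report, and the summed signals of the other 4 (epithelium, skeletal muscle, endothelium and erythroid cells) were at most 228, 438, 303 and 242 on any array.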

Additional observations from a re-analysis of the deposited data

Results flagged for a closer look

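In the contact-inhibited group, the one group of 4 arrays, 20 probe sets of the 10 genes were searched for an array far from the others, and 2 were found, where chance flags about 1 in 20. On the second ELOVL5 probe set contact-inhibited replicate 2, at 668, was separated from the next array by 0.915 of the group's range. On the FADS2 probe set contact-inhibited replicate 1, at 345, was separated by 0.892 of the range. Without that array the change of FADS2 in contact-inhibited against cycling cells was -0.25 ± 0.19, against -0.43 ± 0.22 with it, and neither passed (limma adjusted p = 0.327 and 0.146).

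The effect of serum removal on ELOVL5 differed between confluent and growing cultures by 0.60 ± 0.13 in log2(signal + 16) (limma adjusted p = 0.01). All 3 confluent starved arrays lay above all 4 contact-inhibited arrays, and the serum-starved and cycling arrays overlapped. A lack of overlap between confluent starved and contact-inhibited arrays held for 35.3% of all genes. With the mean of its probe sets the ELOVL5 difference was 0.18 and did not pass (limma adjusted p = 0.825).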

How the results depend on the processing

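Of 70 values (10 genes in 7 comparisons) 13 were called, and none of the 13 changed sign under 25 alternatives. SCD in confluent starved against cycling cells and ELOVL5 in serum-starved against contact-inhibited cells passed under all of them, though SCD had no other probe set to average. Of the other 11 calls, 5 were lost under 1 alternative, 4 under 2 to 7, and 2 (ACSL3) under more. Of 57 values not called, 19 passed under at least 1 alternative. Centring arrays moved the median of all probe sets from 0.05 to -0.08 in serum-starved and from 0.05 to -0.07 in confluent starved against cycling cells. Below, genes counted as higher or lower are out of the 10, and smaller shifts are not all listed. In serum-starved against cycling cells (0 and 0), centring and quantile normalization each gave 2 lower, the filter at the median 1 lower, and array weights and the removal of cycling 3 and contact-inhibited 1 together each 1 higher and 1 lower. In confluent starved against cycling cells (0 and 3), centring, quantile normalization and weights each gave 5 lower, and weights, the median filter and the W-linked covariate each 1 higher. The ACSL3 call there was lost without the filter, with the covariate and with the joint removal. In contact-inhibited against cycling cells (1 and 3), weights and the covariate each gave 2 higher, and the mean of all probe sets 0 higher and 1 lower. The ACSL3 call there was lost with quantile normalization, without the filter, with weights and with the joint removal, which also lost the ACACA call. In confluent starved against contact-inhibited cells (1 and 1), quantile normalization gave 2 lower, weights and the joint removal 3 lower each, the covariate 2 higher and the mean of probe sets 0 higher. In confluent starved against serum-starved cells (0 and 1), quantile normalization gave 2 lower, weights and the joint removal 3 each, and the mean of probe sets 0. In serum-starved against contact-inhibited cells (2 and 0), the mean of probe sets gave 1 higher, weights 1 lower and the joint removal 2 lower. FADS2 also passed as higher there with weights, the covariate and the joint removal. For the difference in serum response (1 and 0), the mean of probe sets gave 0 higher, weights 2 lower and the joint removal 3 lower. Replicate numbers were not treated as pairs: over 18 pairs of same-numbered arrays the correlation of residuals ranged from -0.293 to 0.382, and for 4 of 12 arrays the best match bore the same number. With the replicate number as a block, 1 gene was higher in confluent starved against cycling cells (ACACA, 0.52, limma adjusted p = 0.0347), 0 were lower against serum-starved cells (ACLY, -0.71, limma adjusted p = 0.0709), and both ACSL3 calls were lost (limma adjusted p = 0.0872 and 0.071). Leaving out 1 array at a time gave 0 to 2 higher and 2 to 3 lower in contact-inhibited, 0 to 1 lower in serum-starved, and 0 to 1 higher and 2 to 5 lower in confluent starved against cycling cells. It gave 0 to 1 lower in confluent starved against contact-inhibited cells, 0 to 2 lower against serum-starved cells, and 1 to 3 higher in serum-starved against contact-inhibited cells. Except where a mean of probe sets or fewer arrays entered, the cause of these shifts was not tested.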

Other observations

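Other lipogenic genes of the same lists responded to serum removal in confluent cells. The fatty acid transporter SLC27A4 had 742 ± 159.9 in cycling, 350.2 ± 70.7 in contact-inhibited and 726 ± 67.9 in confluent starved cells, and it rose on serum removal in confluent cells (1.03, limma adjusted p = 0.0019). With the W-linked covariate that change was 0.57 and did not pass (limma adjusted p = 0.106). The kinase subunits PRKAG2 and PRKAB1 of AMPK, which inhibits acetyl-CoA carboxylase, fell in contact-inhibited cells (-1.34 and -0.80) and rose on serum removal in confluent cells (0.93 and 0.82). Of the other AMPK subunits measured, PRKAA1 and PRKAB2 rose in contact-inhibited cells (0.44 and 0.61) and in confluent starved against cycling cells (0.66 and 0.49), and PRKAA2 passed in neither (0.08 and -0.03). The PRKAA1 rise in contact-inhibited cells did not pass without cycling replicate 3 (limma adjusted p = 0.073), nor did the rises in confluent starved cells with the W-linked covariate (limma adjusted p = 0.0565 for PRKAA1 and 0.486 for PRKAB2).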
